A study of Mus musculus with 8 samples.

Results

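The matrix metalloproteinases (MMPs), the ADAM and ADAMTS proteases and their TIMP inhibitors were examined in hearts of mice that lack Gpihbp1. The members were all genes whose symbol is Mmp, Adam, Adamts or Adamtsl followed by a number (Adam1a carries a letter too), with Timp2, Timp3 and Timp4. This gave 64 of the 17190 genes listed: 18 Mmp, 19 Adam, 19 Adamts, 5 Adamtsl and 3 Timp genes. Of these, 46 had enough reads to be tested, among 12826 genes tested in all, and the other 18 are given as read counts.

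Gpihbp1 encodes the protein of capillary endothelial cells that carries lipoprotein lipase to the vessel lumen. The study sequenced heart RNA from 4 Gpihbp1-/- mice, numbered 1, 2, 3 and 4, and from 4 wild-type mice, numbered 2, 4, 5 and 6. They are called knockouts and wild types with these numbers, and values per heart follow the order of the numbers. All mice were males fed standard rodent chow, and the labels give no age, strain, litter or batch and do not say how the allele was made or whether it was deleted in every tissue. Nothing in the labels ties a number in one genotype to the same number in the other. The p-values set the difference between genotypes against the spread between these hearts only. A difference in age, strain, litter or batch between the groups could not be told apart from genotype.

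MMPs are zinc proteases that cut collagens, proteoglycans and other matrix proteins; most are secreted as inactive proenzymes, and some sit in the plasma membrane. ADAMs are membrane proteases that release the outer parts of growth factors, cytokines and receptors, a step called shedding. ADAMTS enzymes are secreted, cut versican, aggrecan and procollagens, and have ADAMTS-like relatives that keep the matrix-binding parts but no protease domain. TIMPs occupy the active site of these enzymes. In the heart these genes are known for the turnover of the matrix, to which fibroblasts, macrophages, neutrophils and vessel cells all contribute.

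The libraries held 9065553 to 13492957 counts. Gpihbp1 had 0, 0, 1 and 0 counts in knockouts, against 1108, 1951, 833 and 1783 counts in wild types, which fits the labels of all 8 libraries. Across all 12826 tested genes, 4 (0.0312%) passed edgeR's quasi-likelihood test at a Benjamini-Hochberg adjusted p below 0.05. 3 libraries stood apart from the others. Knockout 2 and wild type 2 both held more than the other 6 libraries of all 8 macrophage markers, and the marker sum was 2693 CPM (counts scaled to a common library size) in knockout 2 and 4040 CPM in wild type 2, against 399 to 705 CPM in the other 6 libraries. For activated fibroblast markers the sum over 7 genes was 1308 CPM in knockout 2 and 2005 CPM in wild type 2, against 84.4 to 162 CPM elsewhere. Postn alone gave 1069 and 1532 CPM of these 2 sums, and Comp and Fap of this list did not have knockout 2 and wild type 2 as their 2 highest libraries. No marker of either list was at 0 in any library. The cardiomyocyte sum was 40575 CPM in knockout 2 and 43756 CPM in wild type 2, against 67554 to 144216 CPM in the other 6. The markers of the labelled tissue were thus present in all 8 libraries. Of the 6 atrial markers, Myl7 stood at 427 CPM and Sln at 356 CPM in wild type 6, against at most 0.489 CPM and 0.196 CPM in any other library. Myl4 was 974 CPM and Dkk3 96.0 CPM there, against at most 2.45 CPM and 15.1 CPM elsewhere. Bmp10 was close to absent, at 0.141 CPM in wild type 6 and at most 0.0979 CPM in any other library. Nppa, the natriuretic peptide that stressed ventricles also make, stood at 4467 CPM in knockout 2, 3132 CPM in wild type 2 and 3262 CPM in wild type 6, against 157 to 298 CPM in the other 5.

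No protease or TIMP gene differed between Gpihbp1-/- and wild-type hearts past the threshold. 0 of the 46 tested genes had an adjusted p under 0.05, and the lowest adjusted p among them was 0.999977 in edgeR's quasi-likelihood test. At an unadjusted p under 0.05, 1 gene was higher in knockouts (Mmp9) and 0 were lower, where 0.249% of all genes tested were higher at that level and 0.655% were lower. DESeq2 also gave 0 adjusted calls among them. Of the genes described one by one, it returned no p-value for Mmp12, Mmp14, Mmp19, Adam8, Adam12, Adamts2 and Adamts4. In 0 genes did all 4 knockouts lie above all 4 wild types, and in 0 did they all lie below, against 0.265% and 0.366% of all genes. The median log2 fold change of knockout over wild type was 0.04 over the 46 genes, 27 of them positive and 19 negative, and -0.02 over all genes tested. The sign of these small estimates was not stable: of the 29 tested genes that are described one by one, 21 turned sign under at least 1 alternative, 26 moved by over 1.5 times when 1 heart was left out, and none passed the adjusted threshold under any.

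The intervals show how wide a difference these hearts leave undecided. The 95% confidence interval of the log2 fold change included 0 for 45 of the 46 genes, and its half-width had a median of 0.98, with a range of 0.45 to 3.25. The highest library held a median of 3.51 times the CPM of the lowest over the 45 genes with more than 3 counts in every library, against 2.49 times over 12516 such genes of the whole table. That difference itself was not tested.

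**Figure D1:**
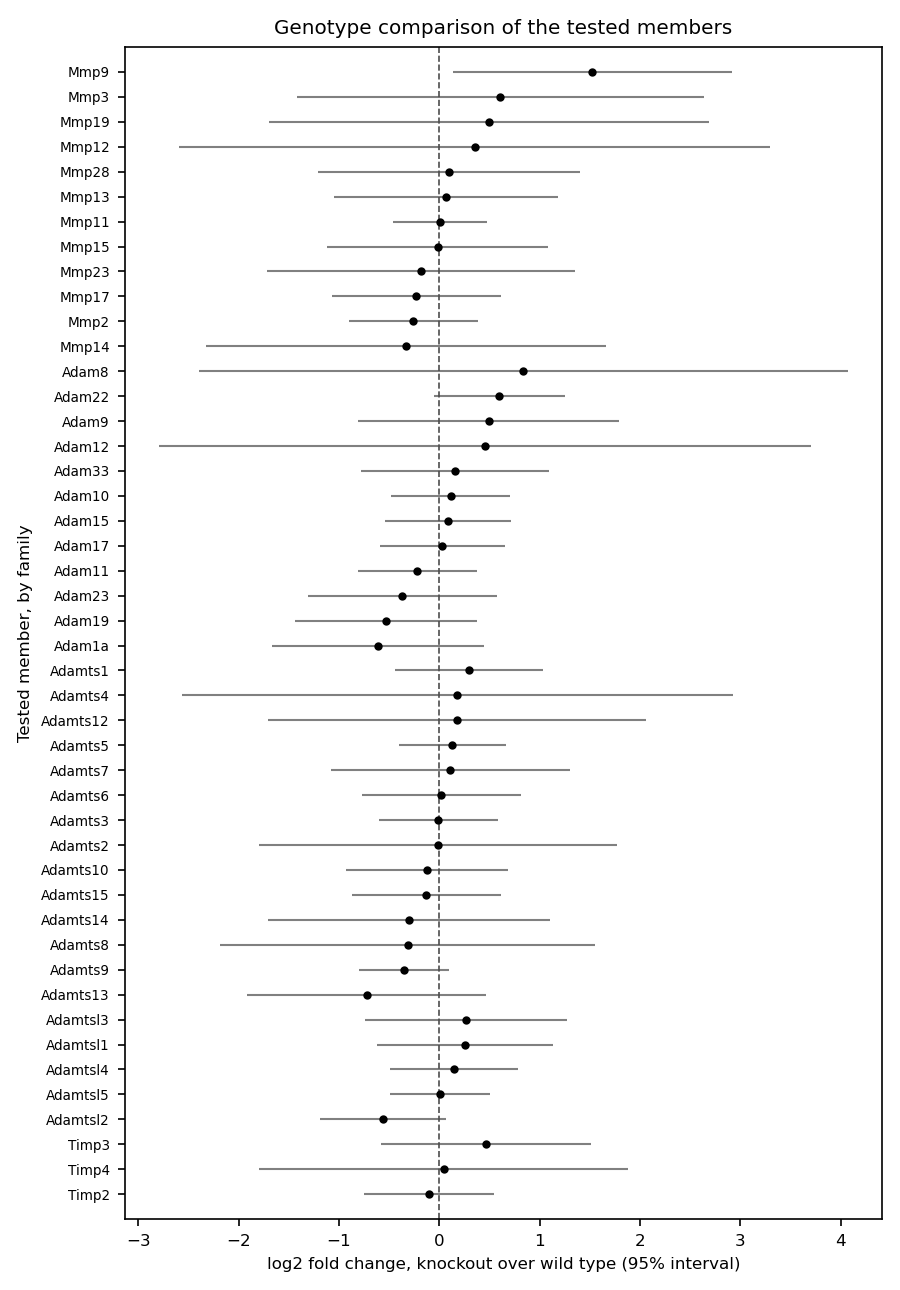
Log2 fold change of knockout over wild type for each of the 46 tested genes, grouped by family, with its 95% confidence interval from edgeR's quasi-likelihood fit (4 hearts each). The interval of Mmp9, 0.14 to 2.92, lies above 0, and the other 45 include it.

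A library pattern that crossed the genotypes covered many of these genes. Knockout 2 and wild type 2 were the 2 highest libraries for 19 of the 46 genes (41.3%), against 22.2% of all genes tested. They were the 2 lowest for 9 genes (19.6%), against 16.4% of all genes tested. The 19 are Mmp2, Mmp3, Mmp12, Mmp13, Mmp14, Mmp19, Mmp23, Adam8, Adam9, Adam10, Adam12, Adam17, Adamts2, Adamts4, Adamts8, Adamts12, Adamts14, Adamts15 and Timp2. The 9 are Mmp15, Mmp17, Adam1a, Adam23, Adamts7, Adamtsl4, Adamtsl5, Timp3 and Timp4. The MMP family gave 7 of its 12 tested members to the first group, ADAM 5 of 12, ADAMTS 6 of 14, ADAMTSL 0 of 5 and TIMP 1 of 3. The macrophage and activated fibroblast sums were high in these 2 libraries and the cardiomyocyte and endothelial sums low. The sum over 8 fibroblast markers was also lowest there, at 1358 CPM in knockout 2 and 2290 CPM in wild type 2. It was 2299 to 3416 CPM elsewhere. These markers were split, with both libraries the highest for 4 and the lowest for 1. That 1 was Gsn, at 281 and 536 CPM, against 1411 to 2519 CPM elsewhere. Both libraries were the lowest for 5 of 8 cardiomyocyte markers and for 5 of 8 endothelial markers. Actc1 was not among them, at 14254 CPM in knockout 2 and 13807 CPM in wild type 2, against 9608 CPM in knockout 1 and 8150 CPM in wild type 4. The part of these cell types in the pattern was not tested. In whole hearts, more cells of a type and more RNA per cell cannot be told apart.

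**Figure D2:**
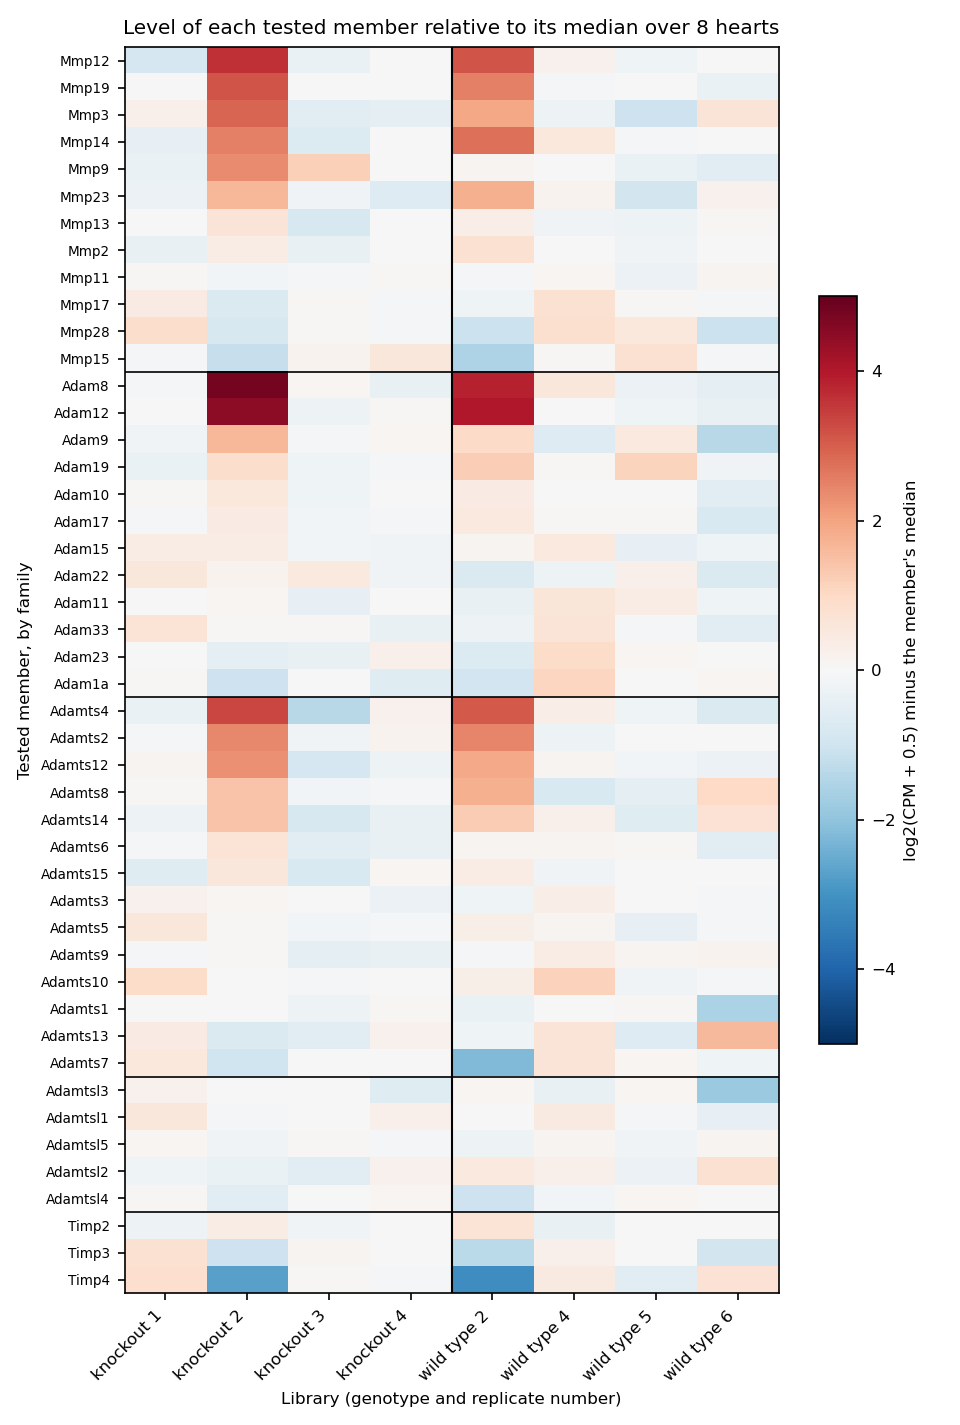
Level of each tested gene in each library on a log2 CPM scale relative to the gene's median over the 8 hearts, with families separated by lines and knockouts left of wild types. Adam8, Adam12, Mmp12, Mmp19, Mmp14, Adamts2 and Adamts4 are red in knockout 2 and wild type 2, and Timp4 is blue there.

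The MMPs that cut the fibrous and basement membrane matrix were compared first. Mmp14, the membrane-bound collagenase that also activates pro-MMP2, stood at 21.4, 165, 17.4 and 28.4 CPM in knockouts 1, 2, 3 and 4, against 195, 41.0, 26.8 and 28.7 CPM in wild types 2, 4, 5 and 6. Knockout 2 and wild type 2 were both 4 times or more above every other library, and the groups overlapped. Its edgeR estimate was -0.33 (95% confidence interval -2.32 to 1.66); leaving out knockout 2 gave -1.70, leaving out wild type 2 gave 0.85 and leaving out both gave -0.52. Mmp2, the gelatinase of fibroblasts, varied less, with 59.0, 101, 59.2 and 77.0 CPM in knockouts, against 131, 78.1, 68.4 and 76.7 CPM in wild types (log2 fold change of -0.26, 95% confidence interval -0.90 to 0.38). Leaving out wild type 2 gave -0.01 and leaving out knockout 2 gave -0.44. Wild type 2 was the highest and knockout 2 the next, and the other 6 hearts lay between 59.0 and 78.1 CPM.

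Mmp15, another membrane-type MMP, went the other way, at 97.5, 45.5, 115 and 150 CPM in knockouts, against 34.3, 106, 174 and 98.1 CPM in wild types (log2 fold change of -0.01, 95% confidence interval -1.11 to 1.09). Its lowest 2 libraries were wild type 2 and knockout 2, and the estimate was 0.23 without the one knockout and -0.30 without the one wild type. Mmp19, a secreted MMP of basement membrane substrates, was 3.27, 32.8, 3.23 and 3.39 CPM in knockouts, against 21.1, 3.14, 3.32 and 2.53 CPM in wild types, with all 6 remaining hearts between 2.53 and 3.39 CPM. The fold change was 0.50 over all 8 hearts, -1.20 without knockout 2 and 1.83 without wild type 2 (interval of the full fit -1.70 to 2.69). Mmp19 shares exons with Tmem198b on the opposite strand in the gene annotation, and whether the authors' counting used strand is not stated, so its counts are uncertain to that extent.

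6 MMP genes lie next to each other on mouse chromosome 9, in the order Mmp13, Mmp12, Mmp3, Mmp10, Mmp8 and Mmp27, with no other listed gene between neighbours. Mmp3 (stromelysin-1) and Mmp12 (macrophage elastase) were both highest in knockout 2 and wild type 2. Mmp3 was 12.9, 83.0, 7.15 and 7.72 CPM in knockouts, against 41.9, 8.84, 4.98 and 16.9 CPM in wild types, and Mmp12 was 0.354, 18.2, 0.685 and 1.04 CPM in knockouts, against 12.8, 1.24, 0.786 and 0.984 CPM in wild types. The groups overlapped for both. Mmp13 (collagenase-3) was at 0.392 to 1.90 CPM in every library. Mmp10 had 1 read in each of knockout 2 and wild type 2, and 0 reads elsewhere. Mmp27 had 4, 45, 3 and 4 reads in knockouts, against 21, 4, 0 and 1 reads in wild types, so knockout 2 and wild type 2 gave 80.5% of its 82 reads. The edgeR estimate of Mmp3 was 0.61 (interval -1.42 to 2.64) and that of Mmp12 was 0.35 (interval -2.60 to 3.30). Without knockout 2 they were -0.97 and -2.53, and without wild type 2 they were 1.45 and 2.34.

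The promoters of 3 of these neighbours are shown because each carries a match to the AP-1 motif TGANTCA, and that of Timp4 because its level went the opposite way in the same libraries. AP-1 is the Fos and Jun transcription factor pair, whose site in the promoters of Mmp genes is well described. Each sequence is the RefSeq window of 250 bases before to 50 bases after the gene's start, in build GRCm38.p6, read 5′ to 3′ along the gene, and capitals mark the matched letters. The windows are chr9:7272264-7272563 for Mmp13, chr9:7347124-7347423 for the Mmp12 start that holds the match and chr9:7445572-7445871 for Mmp3, all on the plus strand, and chr6:115252156-115252455 on the minus strand for Timp4.
Mmp13: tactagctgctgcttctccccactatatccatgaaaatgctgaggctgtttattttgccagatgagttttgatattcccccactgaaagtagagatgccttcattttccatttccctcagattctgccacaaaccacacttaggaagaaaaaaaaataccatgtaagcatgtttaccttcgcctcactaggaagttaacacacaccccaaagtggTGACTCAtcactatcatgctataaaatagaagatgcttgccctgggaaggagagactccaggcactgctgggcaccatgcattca
Mmp12: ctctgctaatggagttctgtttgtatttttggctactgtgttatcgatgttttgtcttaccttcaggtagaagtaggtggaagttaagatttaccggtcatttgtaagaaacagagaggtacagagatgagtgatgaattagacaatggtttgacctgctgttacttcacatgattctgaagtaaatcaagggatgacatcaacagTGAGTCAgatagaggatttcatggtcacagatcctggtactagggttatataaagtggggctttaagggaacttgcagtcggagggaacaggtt
Mmp3: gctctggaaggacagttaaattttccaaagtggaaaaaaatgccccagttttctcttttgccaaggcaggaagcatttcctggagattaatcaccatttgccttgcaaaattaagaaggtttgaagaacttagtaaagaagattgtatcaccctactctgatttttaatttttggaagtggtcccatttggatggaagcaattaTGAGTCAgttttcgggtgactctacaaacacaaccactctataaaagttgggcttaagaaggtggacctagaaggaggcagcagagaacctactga
Timp4: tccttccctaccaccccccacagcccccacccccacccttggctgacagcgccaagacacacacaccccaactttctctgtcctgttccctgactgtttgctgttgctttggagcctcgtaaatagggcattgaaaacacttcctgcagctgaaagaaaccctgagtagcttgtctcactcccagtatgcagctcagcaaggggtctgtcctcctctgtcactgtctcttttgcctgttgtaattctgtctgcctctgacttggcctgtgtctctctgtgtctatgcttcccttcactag
The match begins 35 bases before the start in Mmp13, 44 in Mmp12 and 46 in Mmp3, where it reads TGACTCA in Mmp13 and TGAGTCA in both of the others. The other Mmp12 start in the table has no match, and neither has Timp4. Mmp14, which was also highest in knockout 2 and wild type 2, has no match either. Mmp10 carries 1 match 63 bases before its start. The motif was searched on both strands, as the 7 letters TGANTCA with N any base, and no other motif was searched. Of 39 members with a promoter in the table, 5 held it (12.8%), against 2425 of 27025 genes (8.97%); the fifth is Adam19. Of the genes highest in both knockout 2 and wild type 2, 3 of 12 with a promoter held it, of those lowest there 0 of 7, and of the rest 1 of 11. A match is a description of letters, not of a bound site.

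Mmp8 and Mmp9, the neutrophil collagenase and the gelatinase B of neutrophils and macrophages, had their highest values in knockout hearts. Mmp9 was 2.03, 15.6, 6.66 and 2.64 CPM in knockouts 1, 2, 3 and 4, against 2.93, 2.66, 2.01 and 1.69 CPM in wild types 2, 4, 5 and 6. Knockouts 2 and 3 were the highest, and knockouts 1 and 4 lay within the wild-type range of 1.69 to 2.93 CPM. Means were 6.72 ± 6.24 CPM in knockouts and 2.32 ± 0.572 CPM in wild types (SD, n = 4 each), and the log2 fold change was 1.53 ± 0.62 (SE; 95% confidence interval 0.14 to 2.92; unadjusted p = 0.0347 and adjusted p = 0.999977, edgeR). Without knockout 2 the estimate was 0.68 (unadjusted p = 0.191, edgeR), and without knockout 2 and wild type 2 it was 0.81 (unadjusted p = 0.137, edgeR). Without knockout 3 it was 1.53 (unadjusted p = 0.0570, edgeR). Without wild types 4, 5 or 6 it was 1.60, 1.45 or 1.38 (unadjusted p = 0.0600, 0.0771 or 0.0890, edgeR). Leaving out knockout 1, knockout 4 or wild type 2 gave 1.83, 1.79 or 1.65 (unadjusted p = 0.0113, 0.0173 or 0.0425, edgeR).

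Mmp8 did not reach the minimum read count for the test on all 8 libraries. It had 7, 90, 16 and 2 reads in knockouts, against 13, 4, 1 and 1 reads in wild types, of a total of 134. Without the filter its log2 fold change was 2.39 (unadjusted p = 0.0403, adjusted p = 0.999954, edgeR), and with the strict filter 2.37 (unadjusted p = 0.0507, edgeR). The strict filter, a mean CPM of at least 1, was the looser one, with 13002 genes tested against 12826. Mmp8 met it mainly through knockouts 2 and 3, at 5.91 and 1.57 CPM, against at most 0.906 CPM in any other library. Mmp8 also passed the main filter when knockout 1 or knockout 4 was left out, at 2.66 and 2.73 (unadjusted p = 0.0350 and 0.0166, edgeR), and when wild type 4, 5 or 6 was left out, at 2.34, 2.02 and 2.12 (unadjusted p = 0.0931, 0.107 and 0.109, edgeR). The main filter asks for reads in fewer libraries once a group has lost a heart. These p-values belong to a gene admitted mainly by its knockout reads and were not read as a test of genotype. The summed neutrophil markers were highest in the same 2 knockouts, but not every marker was. The sum over 8 neutrophil markers was 32.8, 102, 86.9 and 6.41 CPM in knockouts, against 41.7, 11.8, 6.46 and 32.0 CPM in wild types, and Csf3r, the receptor for the neutrophil growth factor, made 32.3 CPM of the 41.7 CPM in wild type 2. Csf3r was lower in knockout 2 (28.4 CPM) and in knockout 3 than in wild type 2. Camp was also lower in knockout 2 (0.263 CPM) than in wild type 2 (0.557 CPM). Ly6g, the most specific of them, was at 0 in knockout 4 and in all 4 wild types, and at 0.177, 0.788 and 0.489 CPM in knockouts 1, 2 and 3. S100a8, a calcium-binding protein of neutrophils, was 8.67, 29.7, 25.1 and 0.754 CPM in knockouts, against 3.34, 2.0, 0.699 and 11.2 CPM in wild types. The part of neutrophil number in the Mmp8 and Mmp9 values was not tested.

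**Figure D3:**
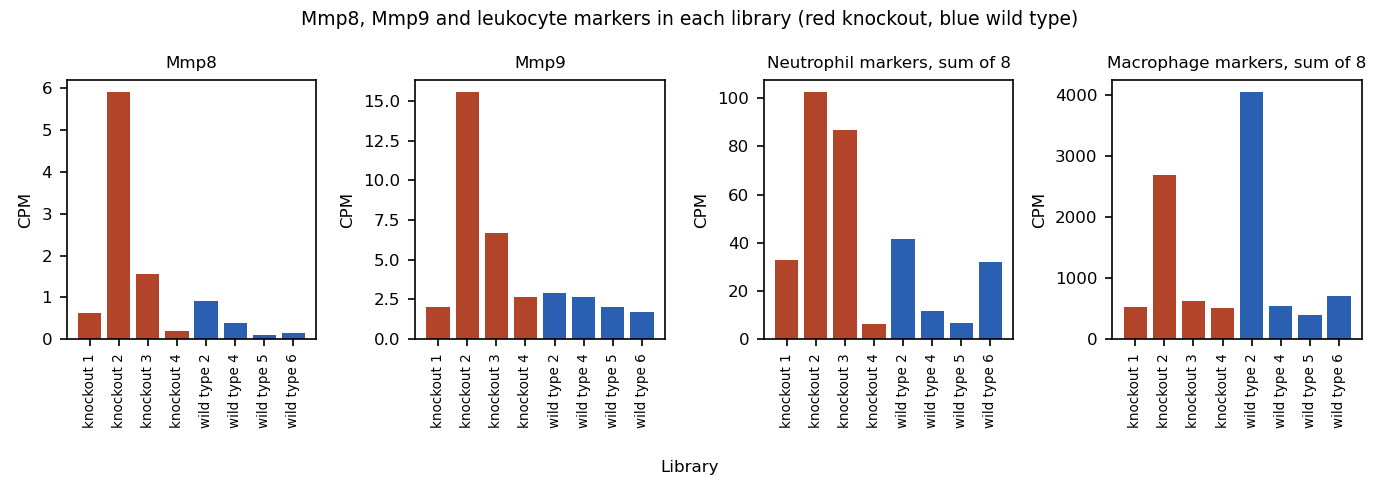
CPM of Mmp8, Mmp9 and the summed neutrophil and macrophage markers (8 each) in each library, with knockouts in red left of wild types in blue; each bar is 1 heart. Mmp9 reaches 15.6 CPM in knockout 2 and 6.66 CPM in knockout 3, where the neutrophil sum is 102 and 86.9 CPM, whereas the macrophage sum is highest in wild type 2.

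The TIMPs did not vary together. Timp3, the matrix-bound TIMP, was 449, 128, 291 and 264 CPM in knockouts 1, 2, 3 and 4, against 103, 317, 261 and 138 CPM in wild types 2, 4, 5 and 6. Timp4, the TIMP typical of heart muscle, was 82.5, 6.56, 48.5 and 43.5 CPM in knockouts 1, 2, 3 and 4, against 4.95, 63.0, 31.5 and 76.5 CPM in wild types 2, 4, 5 and 6. Knockout 2 and wild type 2 were the lowest for both genes, with Timp4 at 6.56 and 4.95 CPM in those hearts and at 31.5 CPM or more in every other heart. Timp2, which helps MMP14 to activate pro-MMP2 as well as inhibiting MMPs, was 124, 192, 131 and 150 CPM in knockouts 1, 2, 3 and 4, against 236, 113, 147 and 145 CPM in wild types 2, 4, 5 and 6, highest in the same libraries.

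The genotype means of Timp3 were 283 ± 132 CPM in knockouts and 205 ± 101 CPM in wild types (SD, n = 4 each), with a log2 fold change of 0.47, 95% confidence interval -0.58 to 1.52 in the edgeR fit. Leaving out 1 heart moved it to between 0.15 (without knockout 1) and 0.77 (without wild type 4), with 0.71 without knockout 2, 0.24 without wild type 2 and 0.30 without wild type 6. For Timp2 and Timp4 the estimates were -0.10 (interval -0.75 to 0.54) and 0.04 (interval -1.79 to 1.88). Leaving out knockout 2 gave -0.25 for Timp2 and 0.41 for Timp4, and leaving out wild type 2 gave 0.14 and -0.33. Timp4 shares exons with Syn2 on the opposite strand in the annotation, so strand matters to its count too.

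TPM values correct for transcript length, so levels of different genes can be set side by side on that scale. Timp2, Timp3 and Timp4 summed to 221, 130, 146 and 157 TPM in knockouts, against 111, 169, 166 and 55.2 TPM in wild types, and the 18 MMPs 103, 317, 94.6 and 123 TPM in knockouts, against 225, 125, 134 and 49.1 TPM in wild types. The ratio of these sums was 2.15, 0.410, 1.55 and 1.28 in knockouts, against 0.491, 1.36, 1.24 and 1.13 in wild types. Knockout 2 and wild type 2 were the 2 hearts with a ratio under 1 and the other 6 lay between 1.13 and 2.15. That order holds only without Timp1, which is not among the members: Timp1 stood at 9.99, 1757, 9.17 and 7.24 TPM in knockouts, against 1044, 6.41, 3.80 and 22.6 TPM in wild types. With Timp1 in the TIMP sum, a calculation added after the values were seen, the ratio was 2.25, 5.95, 1.64 and 1.34 in knockouts, against 5.12, 1.41, 1.27 and 1.59 in wild types, so knockout 2 and wild type 2 became the 2 highest hearts. Within the sum of the 3, Timp4 gave 2.77% in knockout 2 and 1.93% in wild type 2, against 10.2% to 27.6% in the other hearts, while Timp2 gave 64.5% and 73.6% against 21.7% to 41.9%. Mmp14 gave 21.6% of the MMP sum in knockout 2 and 28.4% in wild type 2, against 6.18% to 12.2% elsewhere. Mmp15 gave 5.22% and 4.35% there, against 26.5% to 46.3%.

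**Figure D4:**
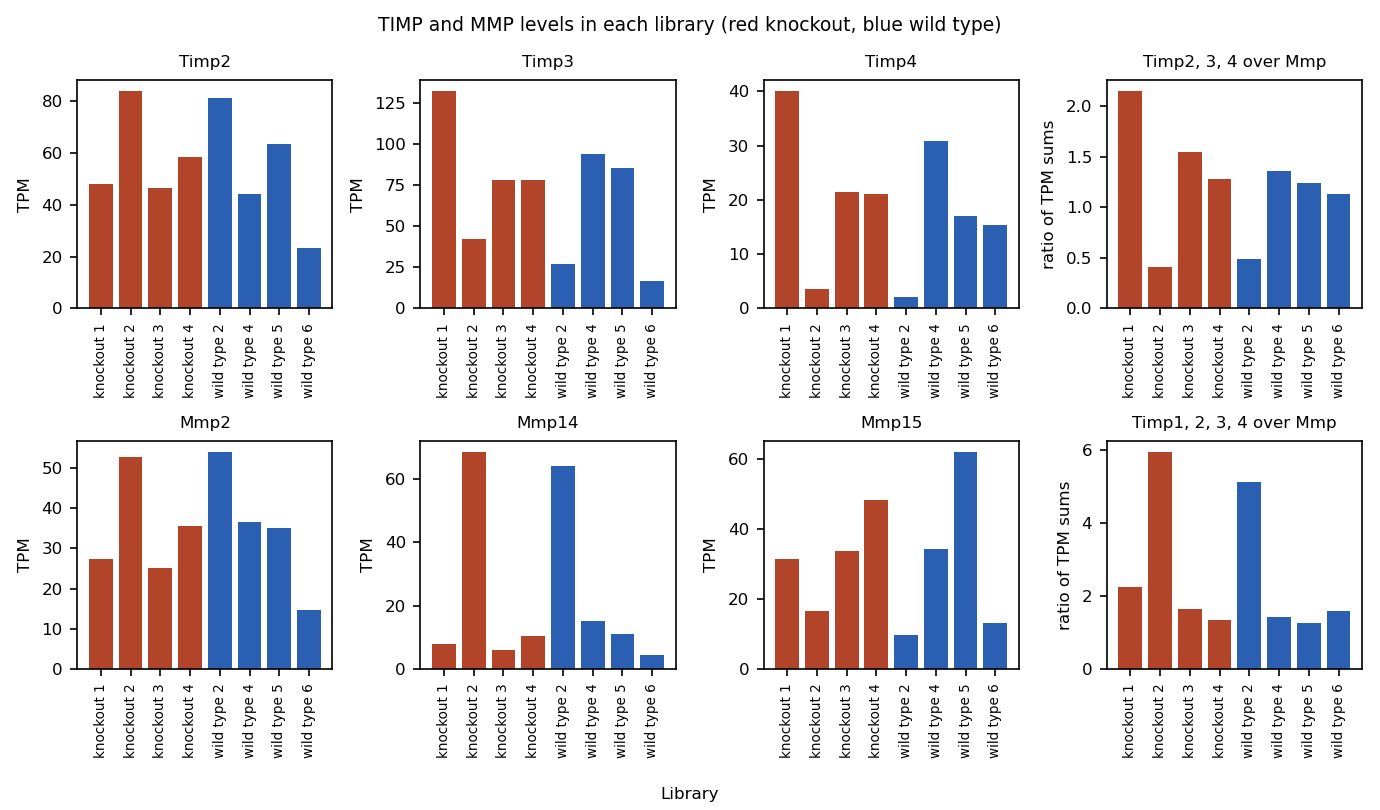
TPM of 3 TIMPs and 3 MMPs, and the ratio of summed TIMP to summed MMP TPM without and with Timp1, in each library (1 bar per heart, from 0), with knockouts in red left of wild types in blue. Without Timp1 the ratio is 0.410 in knockout 2 and 0.491 in wild type 2, below the other hearts; with Timp1 it is 5.95 and 5.12, above them.

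Among the genes as a whole, Adamtsl5 had the highest median level at 82.6 TPM, followed by Timp3 at 78.2, Adam15 at 67.7, Timp2 at 53.1, Mmp2 at 35.4, Mmp15 at 32.5, Adamtsl4 at 23.7 and Timp4 at 19.1 TPM. Of the neighbours among these 8 genes, only Timp2 over Mmp2 held in 8 of 8 hearts. Adamtsl5 exceeded Timp3 in 6 of 8, Timp3 exceeded Adam15 in 4, and Mmp2 exceeded Mmp15 in 4, so those orders do not hold from heart to heart. TPM of the whole set summed to 700, 970, 522 and 598 TPM in knockouts, against 692, 700, 654 and 232 TPM in wild types. The low sum of wild type 6 goes with a TMM scaling factor of 0.678, against 0.964 to 1.16 in the other libraries.

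**Figure D5:**
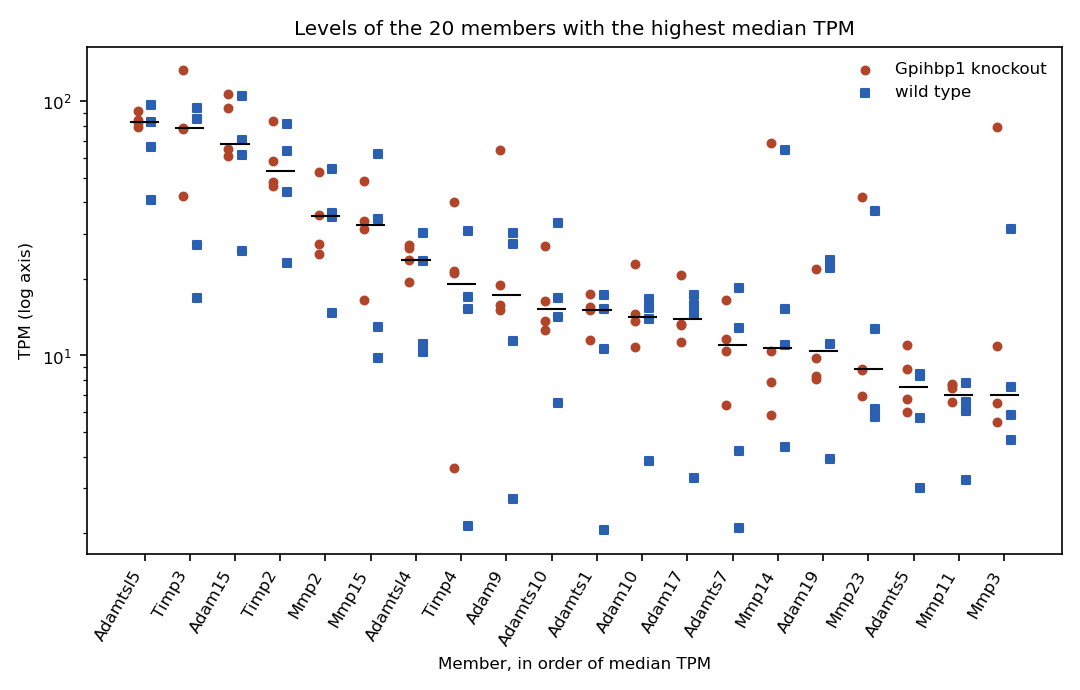
TPM on a log axis for the 20 genes with the highest median over the 8 hearts, with knockouts as red circles left of wild types as blue squares and the median as a bar. Knockouts and wild types overlap for every gene shown, and the lowest square of most genes is wild type 6.

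ADAM proteases included the best-known sheddases. Adam10, which cuts Notch receptors and cadherins, was 48.3, 67.4, 39.5 and 45.4 CPM in knockouts 1, 2, 3 and 4, against 62.1, 45.8, 46.3 and 30.8 CPM in wild types 2, 4, 5 and 6. Adam17, the enzyme that releases tumour necrosis factor, was 40.5, 55.9, 38.7 and 40.7 CPM in knockouts, against 59.3, 43.9, 44.4 and 24.5 CPM in wild types. Both genes were highest in knockout 2 and wild type 2 and lowest in wild type 6, and the estimates were 0.12 (interval -0.48 to 0.71) for Adam10 and 0.03 (interval -0.60 to 0.65) for Adam17. Without knockout 2 they were -0.06 and -0.11. Adam17 shares exons with Iah1 on the opposite strand. Adam15, the most abundant ADAM by TPM, was 189, 193, 135 and 131 CPM in knockouts, against 162, 210, 111 and 126 CPM in wild types (log2 fold change of 0.09, 95% confidence interval -0.54 to 0.72), without order by genotype.

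Adam8, a protease of leukocytes, was 2.39, 86.2, 2.84 and 1.88 CPM in knockouts 1, 2, 3 and 4, against 44.2, 4.09, 2.01 and 1.69 CPM in wild types 2, 4, 5 and 6. Adam12, a protease of mesenchymal cells, was 1.59, 46.4, 1.27 and 1.70 CPM in knockouts, against 32.9, 1.62, 1.31 and 1.12 CPM in wild types. In each, knockout 2 and wild type 2 exceeded every other heart by more than 10 times. Over 8 hearts the estimates were 0.84 (interval -2.40 to 4.07) and 0.45 (interval -2.79 to 3.70); without both libraries they were -0.15 and 0.16. Without knockout 2 alone they were -2.46 and -2.61, and without wild type 2 alone 3.15 and 3.22.

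Adam9, a widely expressed membrane protease, was 45.8, 165, 48.1 and 54.6 CPM in knockouts, against 98.8, 32.8, 71.6 and 19.1 CPM in wild types (log2 fold change of 0.49, 95% confidence interval -0.81 to 1.80). Its 2 highest hearts were again knockout 2 and wild type 2, but wild type 5 was also above all 3 of the other knockouts, and without knockout 2 the estimate was -0.17. Adam19, a sheddase of neuregulins, was 32.6, 76.4, 34.9 and 39.0 CPM in knockouts, against 96.1, 42.9, 89.1 and 36.3 CPM in wild types. Wild types 2 and 5 were the highest, followed by knockout 2, and the estimate was -0.53 (interval -1.44 to 0.37), or -0.90 without knockout 2 (unadjusted p = 0.0406, edgeR) and -0.30 without wild type 2. Adam33, first known from airway smooth muscle, stayed between 1.55 and 4.25 CPM, with a log2 fold change of 0.16, 95% confidence interval -0.78 to 1.09. Adam22, a brain-enriched ADAM without protease activity, was named because it had the second-lowest unadjusted p on the higher side. It was 21.5, 16.3, 20.4 and 13.0 CPM in knockouts, against 8.64, 12.1, 17.5 and 8.71 CPM in wild types, with a log2 fold change of 0.60 ± 0.29 (SE; interval -0.05 to 1.25; unadjusted p = 0.0678, edgeR). Wild type 5 lay above 2 knockouts, so the groups overlapped. Leaving out 1 heart moved the Adam22 estimate to between 0.46 (without wild type 6, unadjusted p = 0.169, edgeR) and 0.86 (without wild type 5, unadjusted p = 0.0135, edgeR).

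Of the ADAMTS enzymes that cut the proteoglycan versican, Adamts1, Adamts5 and Adamts9 varied 3.15-, 1.95- and 1.78-fold between the lowest and the highest heart, and Adamts4 varied 45.5-fold. Adamts1 was 53.4, 54.7, 44.7 and 55.1 CPM in knockouts 1, 2, 3 and 4, against 42.4, 53.5, 55.4 and 17.6 CPM in wild types 2, 4, 5 and 6, and Adamts5 was 50.0, 35.8, 30.7 and 32.3 CPM in knockouts, against 41.7, 37.0, 25.6 and 31.8 CPM in wild types. The 2 genes are neighbours on chromosome 16, and the estimates were 0.30 (interval -0.44 to 1.04) and 0.13 (interval -0.40 to 0.66). Without wild type 6, the lowest heart for Adamts1, its estimate was 0.03. Without knockout 1, the highest heart for Adamts5, its estimate was -0.04. Adamts9 was 26.8, 29.7, 20.8 and 21.9 CPM in knockouts, against 26.7, 36.9, 30.8 and 32.0 CPM in wild types. Its knockouts averaged 24.8 ± 4.19 CPM and its wild types 31.6 ± 4.20 CPM (SD, n = 4 each), with an estimate of -0.35 (interval -0.80 to 0.10, unadjusted p = 0.114, edgeR), and knockout 2 lay above wild type 2.

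Adamts4, an aggrecan- and versican-cutting enzyme, was 1.95, 31.2, 0.685 and 3.11 CPM in knockouts 1, 2, 3 and 4, against 25.4, 3.42, 2.18 and 1.41 CPM in wild types 2, 4, 5 and 6. Adamts12, which cuts the matrix protein COMP, was 2.56, 13.1, 1.08 and 1.88 CPM in knockouts, against 9.96, 2.57, 2.10 and 1.83 CPM in wild types. Adamts2, which trims the N-terminal end of procollagen, was 22.4, 124, 20.6 and 25.9 CPM in knockouts, against 129, 19.1, 23.6 and 22.6 CPM in wild types. In these 3 genes knockout 2 and wild type 2 stood at least 3 times above every other heart, and the estimates were 0.18, 0.18 and -0.01, with the interval of Adamts2 at -1.80 to 1.78. Without both libraries they were -0.31, -0.23 and 0.08, without knockout 2 alone -2.09, -1.16 and -1.08, and without wild type 2 alone 1.97, 1.11 and 1.15. Adamts15, another versican-cutting enzyme, was 7.78, 18.0, 6.85 and 12.8 CPM in knockouts, against 15.5, 10.5, 12.2 and 11.7 CPM in wild types, with an estimate of -0.13 (interval -0.87 to 0.61) and knockout 2 as its highest heart.

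Adamts13, which cuts von Willebrand factor, and Adamtsl2, a fibrillin-binding protein that limits TGF-beta, lie near each other on chromosome 2 with 3 listed genes between them. Adamtsl2 was 12.4, 11.5, 9.69 and 16.9 CPM in knockouts, against 20.4, 17.3, 11.8 and 25.0 CPM in wild types. Means were 12.6 ± 3.05 CPM in knockouts and 18.6 ± 5.55 CPM in wild types (SD, n = 4 each), and the estimate was -0.56 ± 0.28 (SE; interval -1.19 to 0.07; unadjusted p = 0.0752, edgeR). Adamts13 was 9.29, 4.00, 4.50 and 8.19 CPM in knockouts, against 5.85, 11.0, 4.19 and 22.1 CPM in wild types, with an estimate of -0.72 (interval -1.91 to 0.47; unadjusted p = 0.204, edgeR). Both were highest in wild type 6, which was the highest library for 4 of the 46 tested members and for 25.1% of all genes tested. Without it the estimates were -0.40 for Adamtsl2 (unadjusted p = 0.173, edgeR) and -0.13 for Adamts13 (unadjusted p = 0.786, edgeR). Leaving out wild type 5 or knockout 4 moved Adamtsl2 the other way, to -0.73 in both fits (unadjusted p = 0.0206 and 0.0418, edgeR). Adamtsl4, another fibrillin-binding protein, was 74.6, 48.5, 73.5 and 77.0 CPM in knockouts, against 34.9, 66.0, 76.5 and 70.3 CPM in wild types, lowest in knockout 2 and wild type 2, with a log2 fold change of 0.14, 95% confidence interval -0.49 to 0.78.

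The remaining 17 tested genes had fold changes between -0.61 (Adam1a) and 0.27 (Adamtsl3). Adamts7, a COMP-cutting enzyme and one of the 9 genes lowest in knockout 2 and wild type 2, was 56.3, 19.4, 38.2 and 39.3 CPM in knockouts, against 7.94, 60.1, 41.0 and 32.9 CPM in wild types. Its exons overlap Tbc1d2b on the opposite strand, and those of Adam1a overlap Mapkapk5 on the same strand. Besides Mmp8, Mmp10 and Mmp27, the 18 untested genes had between 1 and 65 reads over all 8 libraries. Among them, Adamts16 had reads in knockout 2 (8) and wild type 2 (12) and in no other library, and Mmp25, a membrane-type MMP of leukocytes, had 3, 24, 8 and 0 reads in knockouts, against 20, 4, 3 and 0 reads in wild types.

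Genes that work with these proteases were read beside them from 4 lists. Over all genes tested, knockout 2 and wild type 2 were the 2 highest libraries for 22.2% and the 2 lowest for 16.4%. Of the inhibitors, activators and partners, 24 of 26 were tested, 0 passed the adjusted threshold, 12 were positive and 12 negative (median log2 fold change -0.04), and knockout 2 and wild type 2 were the highest for 12 and lowest for 4. Timp1, the inducible TIMP, was 4.86, 758, 4.89 and 3.58 CPM in knockouts, against 572, 3.14, 1.66 and 23.0 CPM in wild types. Plau, the protease urokinase, was 9.29, 32.0, 6.17 and 8.29 CPM in knockouts, against 24.2, 9.60, 6.11 and 4.22 CPM in wild types. Furin, the convertase that activates membrane-type MMPs, was 85.7, 121, 105 and 120 CPM in knockouts, against 76.0, 59.1, 132 and 41.2 CPM in wild types, with no such order.

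Of the 22 matrix substrates, 20 were tested and 0 passed; 12 were positive and 8 negative, with a median of 0.09. Knockout 2 and wild type 2 were the highest for 14 of the 20 and the lowest for 1. Versican (Vcan) was 11.9, 94.8, 11.6 and 17.5 CPM in knockouts, against 74.9, 9.98, 10.9 and 10.1 CPM in wild types, and Col1a1, a chain of collagen I, was 66.7, 2905, 58.0 and 104 CPM in knockouts, against 1429, 79.6, 106 and 30.8 CPM in wild types. Comp, a cartilage and tendon glycoprotein cut by ADAMTS7 and ADAMTS12, gave 1.59, 2.03, 0.881 and 2.07 CPM in knockouts, against 2.93, 3.04, 2.53 and 7.31 CPM in wild types, with an estimate of -1.24 (unadjusted p = 0.0228, adjusted p = 0.999977, edgeR). All 4 knockouts lay below all 4 wild types, and wild type 6 was the highest heart.

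Among 22 membrane proteins that are shed, 20 were tested, 0 passed, 10 were positive and 10 negative (median 0.02), and knockout 2 and wild type 2 were the highest for 11 and the lowest for 2. Hbegf, a growth factor released by ADAMs, was 12.0, 50.6, 12.8 and 15.5 CPM in knockouts, against 60.7, 11.3, 14.8 and 13.6 CPM in wild types, and Notch1 was 112, 42.6, 61.1 and 71.7 CPM in knockouts, against 47.0, 110, 85.6 and 56.8 CPM in wild types. The endothelial marker sum was 2004, 764, 1267 and 1336 CPM in knockouts, against 637, 2516, 1345 and 1102 CPM in wild types, lowest in wild type 2 and knockout 2, and its part in the Notch1 values was not tested. Of 12 other matrix proteases listed, 10 were tested and 0 passed, with 6 positive, 4 negative and a median of 0.05. Knockout 2 and wild type 2 were the highest for 6, among them the cathepsins Ctsk and Ctss, and the lowest for 1. Ctss, a cathepsin of macrophages, was 29.8, 334, 34.0 and 25.5 CPM in knockouts, against 431, 22.7, 17.2 and 20.2 CPM in wild types.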

How the data were processed

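What was measured is RNA abundance in hearts of 4 Gpihbp1-/- and 4 wild-type male mice. Libraries were poly(A)-selected and strand-specific, per the labels' protocols, of which 1 paragraph names rat tissue. Per the submitters' processing notes the tools were HISAT and Bowtie2 and the build was GRCm39; the counting program and its strand setting were not stated in the sources read. A single table deposited by the authors holds estimated counts (4.32% to 5.89% of values not whole), TPM and FPKM values per sample; FPKM values were not used, and 8 per-sample columns were empty. Totals were 9065553 to 13492957 counts.

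Counts were rounded and filtered with filterByExpr (minimum count 10, minimum total 15), scaled by TMM and compared between genotypes by edgeR 4.0.16's robust quasi-likelihood F-test in R 4.3.3, with Benjamini-Hochberg adjustment over all 12826 genes at 0.05. CPM are TMM-scaled. The deposited TPM were used for levels between genes. The procedure was tested on simulated data. Alternatives were RLE and total-count scaling, no filter, a filter called strict (mean CPM of at least 1, which tested 13002 genes), DESeq2 1.42.0, a block by replicate number and left-out libraries. Intervals rest on the spread between hearts. With 4 samples a group they are wide, with a biological coefficient of variation of 43.7%.

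The members, gene lists and alternatives were chosen with earlier results of these data known. The text describes 28 members from a fixed list, together with the 3 tested members of lowest unadjusted p in each direction; other members named in the text were chosen after their values were seen. Promoters and neighbours come from RefSeq tables in GRCm38.p6, matched by gene identifier (64 of 64 genes matched and 39 had a promoter). Exon overlaps come from a GRCm38 annotation, matched by symbol. The 14 marker lists gave 0 adjusted calls. Summed CPM over the 8 libraries ranged from 1358 to 3416 for fibroblast, 711 to 1663 for mural, 25.6 to 58.1 for Schwann, 4.07 to 18.2 for mast cell, 1.70 to 7.17 for lymphocyte, 3.37 to 13.1 for mesothelial, 0 to 3.94 for adipocyte and 220.0 to 8474 for erythroid and platelet markers, with the last highest in wild type 6. The values of 1 listed gene are not reported here.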

Additional observations from a re-analysis of the deposited data

Results flagged for a closer look

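Of 60 sets of 4 hearts examined (each named gene in each genotype), 23 held a heart that lay far from the other 3, by the ratio of its gap to the whole range against Dixon's 95% critical value. Chance gives about 1 in 20 such sets, but the sets share the same hearts and are not independent; over all genes tested, 13.4% of 25650 sets did. Knockout 2 was that heart in 13 sets, wild type 2 in 9 and knockout 3 in 1. Mmp12 stood at 18.2 CPM in knockout 2 against 0.354 to 1.04 CPM in the other knockouts, and at 12.8 CPM in wild type 2 against 0.786 to 1.24 CPM in the other wild types. Mmp19 stood at 32.8 CPM in knockout 2 against 3.23 to 3.39 CPM in the other knockouts, and at 21.1 CPM in wild type 2 against 2.53 to 3.32 CPM in the other wild types. Mmp14 stood at 165 CPM in knockout 2 against 17.4 to 28.4 CPM in the other knockouts, and at 195 CPM in wild type 2 against 26.8 to 41.0 CPM in the other wild types. Adam8 stood at 86.2 CPM in knockout 2 against 1.88 to 2.84 CPM in the other knockouts, and at 44.2 CPM in wild type 2 against 1.69 to 4.09 CPM in the other wild types. Adam12 stood at 46.4 CPM in knockout 2 against 1.27 to 1.70 CPM in the other knockouts, and at 32.9 CPM in wild type 2 against 1.12 to 1.62 CPM in the other wild types. Adamts2 stood at 124 CPM in knockout 2 against 20.6 to 25.9 CPM in the other knockouts, and at 129 CPM in wild type 2 against 19.1 to 23.6 CPM in the other wild types. Adamts4 stood at 31.2 CPM in knockout 2 against 0.685 to 3.11 CPM in the other knockouts, and at 25.4 CPM in wild type 2 against 1.41 to 3.42 CPM in the other wild types. Adamts12 stood at 13.1 CPM in knockout 2 against 1.08 to 2.56 CPM in the other knockouts, and at 9.96 CPM in wild type 2 against 1.83 to 2.57 CPM in the other wild types. Mmp3 reached 83.0 CPM in knockout 2, above the 7.15 to 12.9 CPM of the other knockouts. Adam9 reached 165 CPM in knockout 2, above the 45.8 to 54.6 CPM of the other knockouts. Adam17 reached 55.9 CPM in knockout 2, above the 38.7 to 40.7 CPM of the other knockouts. Adam19 reached 76.4 CPM in knockout 2, above the 32.6 to 39.0 CPM of the other knockouts. Mmp2 reached 131 CPM in wild type 2, above the 68.4 to 78.1 CPM of the other wild types. Adamtsl4 was low in knockout 2 at 48.5 CPM, against 73.5 to 77.0 CPM in the other knockouts. Adamts1 was low in knockout 3 at 44.7 CPM, against 53.4 to 55.1 CPM in the other knockouts.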

How the results depend on the processing

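The 4 calls over all genes became 8 with DESeq2 and 168 with a replicate block, 3 with RLE or total-count scaling, 4 with no filter and 3 with the strict filter, and 2 to 3 with 1 heart left out. 0 of these proteases and TIMPs was called under any alternative, but DESeq2 gave no p-value for some of them. Of 463 values of named genes, 392 kept their direction and 71 turned it, none of them called; 21 of 29 genes turned somewhere, and beyond the left-out libraries the cause was not tested. The log2 fold changes that turned were as follows. With total-count scaling they were Mmp15 0.066, Adamts2 0.087 and Timp2 0.0015. Without a filter they were Mmp15 0.0030 and Adamts2 0.0089. The genotypes share the numbers 2 and 4, with correlations of the deviations of 0.91 and 0.11 in same-numbered hearts, and the labels do not tie them. Between hearts of unlike number the correlations ranged from -0.67 (knockout 4 with wild type 2) to 0.69 (knockout 1 with wild type 4). Only the numbers 2 and 4 hold both genotypes. The block's estimates and its 168 calls therefore rest on hearts 2 and 4 of each genotype, and the remaining hearts add nothing to them. With the replicate block the values were Mmp15 0.46, Adam15 -0.21, Adam17 -0.097, Adam33 -0.39, Adamts2 0.18, Adamts5 -0.21, Adamts15 0.26, Timp2 0.056 and Timp4 -0.12. Without knockout 2 and wild type 2 they were Mmp3 -0.12, Adam8 -0.15, Adamts2 0.078, Adamts4 -0.31, Adamts12 -0.23 and Timp2 0.00075. Without wild type 6 as well they were Mmp12 -0.54, Adam8 -0.35, Adam9 -0.076, Adam10 -0.051, Adam15 -0.079, Adam17 -0.14, Adam33 -0.17, Adamts1 -0.090, Adamts2 0.11, Adamts4 -0.54, Adamts12 -0.33 and Timp2 0.054. With 1 heart left out the median over the tested genes ranged from -0.25 (without knockout 2) to 0.13 (without wild type 2), and turning genes ranged as follows: Adam10 -0.059 to 0.29, Adam12 -2.61 to 3.22, Adam15 -0.038 to 0.29, Adam17 -0.18 to 0.22, Adam33 -0.10 to 0.52, Adam8 -2.46 to 3.15, Adam9 -0.17 to 0.92, Adamts12 -1.16 to 1.11, Adamts15 -0.45 to 0.050, Adamts2 -1.08 to 1.15, Adamts4 -2.09 to 1.97, Adamts5 -0.043 to 0.24, Adamtsl4 -0.052 to 0.28, Mmp12 -2.53 to 2.34, Mmp14 -1.70 to 0.85, Mmp15 -0.30 to 0.36, Mmp19 -1.20 to 1.83, Mmp3 -0.97 to 1.45, Timp2 -0.25 to 0.14 and Timp4 -0.42 to 0.42. At these depths a gene with 2 reads over all libraries, such as Mmp10, gives no comparison.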
